A study of Mus musculus with 23 samples.

Results

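Bone marrow-derived macrophages (BMDM) that lacked the kinases MK2 and MK3 were compared with wild-type (wt) BMDM after 2 h of LPS. The comparison rests on 8 of the 23 arrays of the 2 h experiment, 4 of MK2/3-/- and 4 of wt BMDM treated with LPS, and covers all 26512 measured genes, including those that LPS does not induce. Arrays were assigned by their labelled genotype and treatment. All mice were male and labelled C57BL/6 (on a C57BL/6J background per the study's methods), aged 12 to 13 weeks for the wt and 11 to 14 weeks for the MK2/3-/- LPS arrays (10 to 14 weeks over all 23 arrays). Both kinase genes are deleted in every cell of the knockout animals, so that bone marrow precursors lacked the kinases before and throughout differentiation. Marrow of the femur was differentiated for 9 days with M-CSF at 10 ng/ml, and the macrophages were then exposed to LPS at 100 ng/ml for 120 min. The remaining arrays, 8 of the same 2 genotypes in medium alone and 7 of BMDM lacking only MK2 (MK2-/-), entered the fit and are quoted where they bear on a gene. The values are log2 signals of single-colour Agilent arrays, quantile normalized, and differences are MK2/3-/- minus wt.

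LPS, a component of the outer membrane of Gram-negative bacteria, binds the TLR4 receptor complex on macrophages and activates NF-kB, interferon regulatory factors and MAP kinases, among them p38. Active p38 phosphorylates the closely related kinases MK2 and MK3, which in turn phosphorylate tristetraprolin, a protein that binds AU-rich elements in the mRNAs of cytokines and recruits the decay machinery. Phosphorylated tristetraprolin is a poor recruiter of that machinery, and MK2 is best known in macrophages for allowing the production of TNF, IL-6 and IL-10.

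Every wt array after LPS had more probes well above background (56.2 to 60.8%) than every MK2/3-/- array (48.5 to 55.4%). Over all genes, wt LPS arrays 2 and 3 and MK2/3-/- LPS array 4 correlated more closely with the other genotype than with their own, the last with a median r of 0.976 against 0.966. Each genotype had been hybridized on its own slide, so that the effects of slide and genotype cannot be told apart in any level difference below. Of 9 measured macrophage markers, all were detected, with a summed level between 19.33 and 19.63 on the wt and between 19.28 and 19.7 on the MK2/3-/- arrays. Markers of T and NK cells, B cells, neutrophils, mast cells, erythroid cells, dendritic cells and stromal cells (46 measured) included no gene past the adjustment. Of these, 33 were above background on at least 1 of the 8 arrays, among them all 8 neutrophil, all 7 stromal and 5 of 8 T and NK cell markers, and 13 on none, *Pax5*, *Cd3d*, *Cd8a*, *Cpa3*, *Alas2*, *Clec9a* and *Xcr1* among them. Stromal markers had the largest shift, with a median difference of -1.28 and summed levels from 12.82 to 17.4 in wt and from 10.77 to 16.39 in MK2/3-/- BMDM, and their part in the results was not tested. In such bulk RNA, fewer cells of a type and less RNA per cell cannot be told apart.

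After LPS, 205 genes were higher and 231 lower in MK2/3-/- than in wt BMDM at an adjusted p under 0.05 in limma, which is 0.773% and 0.871% of all genes and 1.64% together. Higher genes had a median log2 difference of 1.1 and lower genes one of -0.969, compared with 0.0068 for all genes. On the log2 scale, 120 of the higher and 108 of the lower genes differed by at least 1, and 2 and 8 of them by at least 3. The 4 arrays of each group did not overlap for 176 of the higher and 204 of the lower genes. Of all genes, 2.91% had every MK2/3-/- array above every wt array, and another 2.91% had every one below. The count depends strongly on how the spread is estimated: it was 436 when all 23 arrays shared one estimate and 6, all lower, when only the 8 arrays were fitted. Of 56 called genes that were checked singly, 52 lost their call when only the 8 arrays were fitted, and *Mapkapk2*, *Mapkapk3*, *Plcxd1* and *Grpel2* kept it. Fits that leave out 1 array still share the spread of all remaining arrays, so that a call kept in them does not remove this limit. Leaving out 1 array gave between 127 genes (without wt LPS array 1) and 619 (without MK2/3-/- LPS array 4), with 155 without wt array 4 and 245, 184 and 248 without MK2/3-/- arrays 1, 2 and 3.

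The targeted transcripts were both reduced. *Mapkapk2*, which encodes MK2, read 14.84, 15.37, 14.19 and 14.67 on wt arrays 1 to 4 and 11.54, 11.65, 11.58 and 12.26 on MK2/3-/- arrays 1 to 4 after LPS, a difference of -3.01 (SE 0.25, adjusted p = 2.65e-06). *Mapkapk3*, which encodes MK3, read 13.96, 13.77, 14.35 and 13.94 in wt and 10.64, 10.36, 10.90 and 10.91 in MK2/3-/- BMDM, a difference of -3.30 (SE 0.17, adjusted p = 1.17e-09). No array of one genotype reached the range of the other, and both probes stayed well above background on all 8 arrays. Whether these probes lie within the deleted parts of the genes is not given in the sources used here. The deficit in *Mapkapk3* was larger after LPS than in medium, by -1.68 in the test of the LPS response. With 4 arrays against 4, the exact permutation test of a single gene gives a two-sided p of 0.0286 at the smallest, the value reached by every gene whose groups do not overlap.

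No other member of the p38 cascade passed the adjustment. Of 17 genes for p38 isoforms, their activators and MK-type kinases, only the targeted pair passed, 1 was higher and 3 were lower at an unadjusted p under 0.05 (the targeted pair included), and the list had a median of -0.14. *Mapk14*, which encodes p38 alpha, differed by -0.44 (adjusted p = 0.316). *Rps6ka5*, which encodes MSK1, a kinase of histones and CREB downstream of p38, read 9.68, 9.77, 9.76 and 9.16 in wt and 10.88, 10.64, 10.61 and 9.81 in MK2/3-/- BMDM (difference 0.89, adjusted p = 0.0675). Every MK2/3-/- array was thus above every wt array, although the gene did not pass the adjustment. None of the 10 dual-specificity phosphatases that switch off MAP kinases passed in limma (1 higher and 1 lower at an unadjusted p under 0.05), with *Dusp1* at 0.17 and *Dusp4* at -1.33 (adjusted p = 0.876 and 0.352).

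Among 17 factors that bind AU-rich mRNA or degrade mRNA, none passed the adjustment in limma, 1 was higher and 2 lower at an unadjusted p under 0.05 and the median was 0.0842. *Zfp36*, which encodes tristetraprolin itself, differed by -0.04 (adjusted p = 0.986). Its paralogue *Zfp36l1* read 11.79, 12.25, 12.92 and 13.65 in wt and 10.51, 10.31, 10.33 and 11.98 in MK2/3-/- BMDM (difference -1.87, adjusted p = 0.0627), so that array 4 of the knockout lay within the wt range. *Elavl1*, which encodes the stabilizing protein HuR, differed by -1.41 (adjusted p = 0.0672) with separate groups, but by 0.086 when the brightest of its probes was taken in place of the most LPS-induced.

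Of 22 genes whose mRNAs tristetraprolin is known to bind or destabilise, *Il10*, *Il2*, *Cxcl2* and *Il23a* were lower, *Plk2* was higher and 17 did not pass, which makes 22.7% called compared with 1.64% of all genes, and the list had a median of -0.346. Without 1 array, between 1 (wt LPS array 1 or MK2/3-/- LPS array 2) and 4 of its genes were lower, with 2 without wt array 4 or knockout array 1. The list was drawn up with earlier results of these arrays known, and does not bear independently on its own direction. *Il10*, the main anti-inflammatory cytokine of macrophages, read 11.73, 12.10, 11.51 and 11.34 in wt and 7.35, 9.22, 8.16 and 9.07 in MK2/3-/- BMDM. All knockout arrays were more than 2 log2 units below all wt arrays. The difference of -3.22 (SE 0.47, adjusted p = 0.00161) corresponds to a 9.29-fold lower signal, and the call was kept when any 1 of the 8 arrays was left out. That call was lost when only the 8 arrays were fitted.

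*Il2*, a growth factor of T cells, read 11.01, 11.36, 9.16 and 10.44 in wt and 6.08, 6.20, 8.72 and 8.74 in MK2/3-/- BMDM (difference -3.06, SE 0.63, adjusted p = 0.0195). The knockout arrays fell into a low and a high pair, and the high pair came within 1 log2 unit of wt array 3. *Il23a*, the p19 subunit of IL-23, read 8.86, 9.64, 7.76 and 8.0 in wt and 6.70, 6.46, 6.73 and 7.25 in the knockout (difference -1.78, SE 0.36, adjusted p = 0.0152). Here, too, the groups were separate, with the lowest wt array close to the highest knockout array. Both calls were lost without wt LPS array 1 or MK2/3-/- LPS array 2, and that of *Il2* also without wt array 4 or knockout array 1, with adjusted p-values up to 0.0776 for *Il2* and 0.0663 for *Il23a*.

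*Cxcl2*, a chemokine that attracts neutrophils, read 15.21, 15.66, 15.11 and 15.51 in wt and 12.66, 13.07, 13.26 and 14.02 in MK2/3-/- BMDM. The lowest wt array was above the highest knockout array, and the signal was 4.35-fold lower in the knockout (difference -2.12, SE 0.45, adjusted p = 0.0226). The adjusted p rose to between 0.0539 and 0.0734 without wt LPS array 1 or 4 or without MK2/3-/- LPS array 1, 2 or 3. *Cxcl1*, a chemokine of the same receptor and a neighbour of *Cxcl2* in the genome, read 16.06, 16.11, 15.60 and 15.73 in wt and 13.82, 14.01, 13.75 and 14.75 in the knockout (difference -1.79, adjusted p = 0.0744). Its groups were equally separate, although it did not pass the adjustment. Of 23 chemokines, *Cxcl2* alone passed (4.35% compared with 1.64% of all genes), and the 13 CC chemokines lay between -0.35 and 0.61 with a median of 0.0805.

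Most tristetraprolin targets did not pass the adjustment, although 8 of the 22 were lower and 1 was higher at an unadjusted p under 0.05. *Tnf* read 17.35, 17.98, 17.37 and 17.24 in wt and 16.62, 17.12, 16.86 and 17.48 in MK2/3-/- BMDM (difference -0.47, adjusted p = 0.642), and *Il6* differed by 0.46 (adjusted p = 0.889). The groups overlapped for both. *Il1b*, which encodes IL-1 beta, differed by -0.40 (adjusted p = 0.732) and *Csf2*, which encodes GM-CSF, by -1.12 (adjusted p = 0.300). *Plk2*, a polo-like kinase, was the one target that passed the adjustment with more signal in the knockout, with 9.28, 9.39, 9.12 and 9.41 in wt and 11.11, 11.17, 11.08 and 10.35 in MK2/3-/- BMDM (difference 1.63, SE 0.30, adjusted p = 0.00889). Its groups were far apart, and the call was kept whichever of the 8 arrays was left out, but was lost when only the 8 arrays were fitted.

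**Figure D1:**
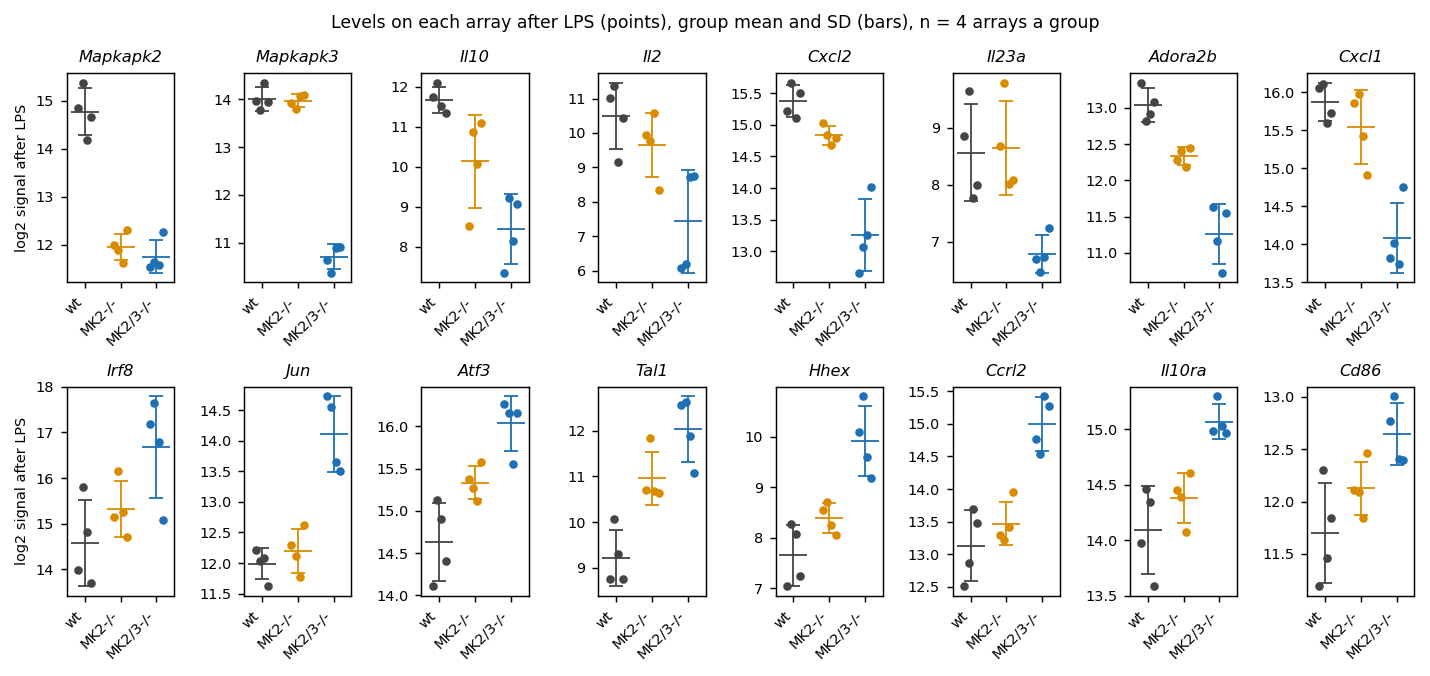
Log2 signal after LPS (vertical axis, scaled for each gene) of 16 genes on each wt, MK2-/- and MK2/3-/- array (points), with the group mean and SD (bars, n = 4 arrays a group). In the upper row, all MK2/3-/- arrays lie below all wt arrays, and in the lower row they lie above them except for *Irf8*, where MK2/3-/- array 4 lies within the wt range.

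The stretches of promoter that hold motifs for the main LPS-activated factors are printed for 3 genes of these results, the chemokines *Cxcl2*, which was lower, and *Cxcl1*, which did not pass the adjustment, and *Tnip3*, an A20-binding inhibitor of NF-kB that was higher. They are RefSeq sequences of GRCm38.p6, each 150 bases 5′ to 3′ on the strand of the gene, at chr5:90903749-90903898 (+), chr5:90891095-90891244 (+) and chr6:65590248-65590397 (+), and capitals mark matches to an NF-kB pattern (GGGA, any 4 bases, CC) on either strand.
Cxcl2: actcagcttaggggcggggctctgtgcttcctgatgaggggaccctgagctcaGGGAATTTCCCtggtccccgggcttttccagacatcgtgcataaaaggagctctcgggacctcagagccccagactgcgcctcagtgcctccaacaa
Cxcl1: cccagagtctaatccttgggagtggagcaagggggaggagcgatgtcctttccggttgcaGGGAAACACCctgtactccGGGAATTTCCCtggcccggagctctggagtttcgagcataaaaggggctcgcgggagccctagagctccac
Tnip3: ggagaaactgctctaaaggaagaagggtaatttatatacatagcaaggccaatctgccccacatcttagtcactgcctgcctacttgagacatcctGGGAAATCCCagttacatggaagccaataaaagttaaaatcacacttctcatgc
Both chemokine promoters carried the same run, GGGAATTTCCC, upstream of the start, and *Cxcl1* a further match before it. Within 250 bases upstream of the start, this pattern was found in 22.6% of 16553 measured genes with a promoter in the table, in 27.3% of the 132 higher genes that could be matched and in 27.3% of the 154 lower ones. Of 22 tristetraprolin targets, 18 were matched, and 38.9% of these held it. A match describes letters in the window and not a bound site.

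Among 36 cytokines, no gene was higher and *Il10*, *Il2* and *Il23a* were lower (8.33% called compared with 1.64% of all genes). The median was 0.048. *Il33*, an alarmin of the IL-1 family, differed by 1.40 (adjusted p = 0.0663) and *Osm*, which encodes oncostatin M of the IL-6 family, by 0.96 (adjusted p = 0.0877). *Ifnb1*, which encodes interferon beta, read 14.58, 15.54, 14.10 and 15.26 in wt and 13.46, 13.44, 13.13 and 14.76 in MK2/3-/- BMDM (difference -1.18, adjusted p = 0.241). Its groups overlapped through MK2/3-/- array 4.

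Of 38 cytokine and chemoattractant receptors, *Ccrl2* and *Il10ra* were higher and none was lower (5.26% called compared with 1.64% of all genes). The median was 0.177. *Ccrl2*, a chemerin-binding receptor without classical signalling, read 12.51, 12.86, 13.69 and 13.48 in wt and 14.76, 14.53, 15.43 and 15.27 in MK2/3-/- BMDM (difference 1.86, SE 0.27, adjusted p = 0.00168). *Il10ra*, the ligand-binding chain of the IL-10 receptor, read 13.98, 14.46, 14.34 and 13.59 in wt and 14.98, 15.30, 15.03 and 14.97 in the knockout (difference 0.98, SE 0.18, adjusted p = 0.00840). For both receptors every knockout array was above every wt array. Without any 1 of the 8 arrays both remained past the adjustment, at 0.00924 and 0.0373 at most. *Il10rb*, which encodes the second chain of the IL-10 receptor, differed by -0.13 and *Il4ra*, the IL-4 receptor alpha chain, by -0.23, and neither passed.

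Interferon-stimulated genes were shifted upwards as a list without passing one by one. Of 50 such genes, 46 had a higher mean in MK2/3-/- BMDM and the median was 0.657, whereas the median of all genes was 0.0068 and 50.8% of them were above 0. Only *Irf8* passed the adjustment (2% of the list compared with 1.64% of all genes), and 8 genes were higher and 0 lower at an unadjusted p under 0.05 in limma (7.02% and 6.52% of all genes). *Irf8*, a transcription factor of the monocyte lineage that interferons induce, read 13.99, 15.82, 14.82 and 13.70 in wt and 17.18, 17.64, 16.80 and 15.08 in the knockout. The difference was 2.09 (SE 0.47, adjusted p = 0.0308), with MK2/3-/- array 4 below wt array 2 (exact permutation p = 0.0571, two-sided). *Cxcl9*, an interferon-induced chemokine, read 12.60, 14.38, 12.37 and 9.58 in wt and 16.10, 16.75, 15.03 and 12.62 in MK2/3-/- BMDM (difference 2.89, adjusted p = 0.204).

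In both genes, wt array 2 was the highest and wt array 4 the lowest of the wt arrays, and knockout arrays 2 and 4 were the highest and lowest of theirs. The median of the list depended on these arrays: it was 0.323 without wt LPS array 4, 0.421 without MK2/3-/- LPS array 2 and 0.948 without wt LPS array 2. *Irf8* lost its call without wt array 1 or 4 or without MK2/3-/- array 1, 2 or 3, with an adjusted p up to 0.122. The antiviral effectors were the least shifted of the list, with a median of 0.549 over 22 genes, followed by sensors and regulators with 0.805 over 18. The GTPases of the GBP and IRG families, which attack vacuoles of intracellular microbes, had a median of 0.899, and all 10 were above 0. *Gbp3* read 14.15, 15.10, 14.42 and 13.61 in wt and 15.29, 15.86, 15.01 and 14.70 in the knockout (difference 0.89, adjusted p = 0.204), and *Isg15*, a ubiquitin-like modifier, differed by 0.57 (adjusted p = 0.533). The arrays of both genotypes overlapped for *Gbp3*.

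Promoters of *Gbp3* (chr3:142559894-142560043, + strand) and *Isg15* (chr4:156200819-156200968, - strand) are shown as examples of the element by which type I interferon acts, with 150 bases each from RefSeq on GRCm38.p6 and the ISRE pattern (GAAA, any 2 bases, GAAA) in capitals, on either strand. *Plk2* (chr13:110394894-110395043, + strand) is added because its upstream bases held the cAMP response element TGACGTCA, marked in the same way. An ISRE match also lay within 250 bases upstream of *Plk2*, outside the 150 bases printed.
Gbp3: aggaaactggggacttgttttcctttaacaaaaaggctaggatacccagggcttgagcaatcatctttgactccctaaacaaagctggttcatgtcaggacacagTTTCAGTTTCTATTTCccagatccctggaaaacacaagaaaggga
Isg15: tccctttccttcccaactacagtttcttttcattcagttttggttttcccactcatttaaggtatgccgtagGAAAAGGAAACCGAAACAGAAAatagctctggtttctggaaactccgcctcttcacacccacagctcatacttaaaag
Plk2: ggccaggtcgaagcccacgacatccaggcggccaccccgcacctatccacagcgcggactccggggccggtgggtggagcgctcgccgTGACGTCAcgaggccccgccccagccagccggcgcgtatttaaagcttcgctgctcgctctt
In *Gbp3* and *Isg15* several matches overlapped each other. A second RefSeq window of *Gbp3* (chr3:142560206-142560355, + strand) held no match. The ISRE pattern was found upstream of 48.7% of the 39 interferon-stimulated genes that could be matched, compared with 3.46% of all measured genes with a promoter, 4.55% of the higher and 1.95% of the lower genes. TGACGTCA was found in 2.31% of all, 3.03% of the higher and 2.60% of the lower genes, the AP-1 pattern TGANTCA in 7.27%, 3.79% and 5.19%, and the C/EBP pattern TTGCNNAA in 10.3%, 5.30% and 11.0%. These shares are given as descriptions and were not tested.

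**Figure D2:**
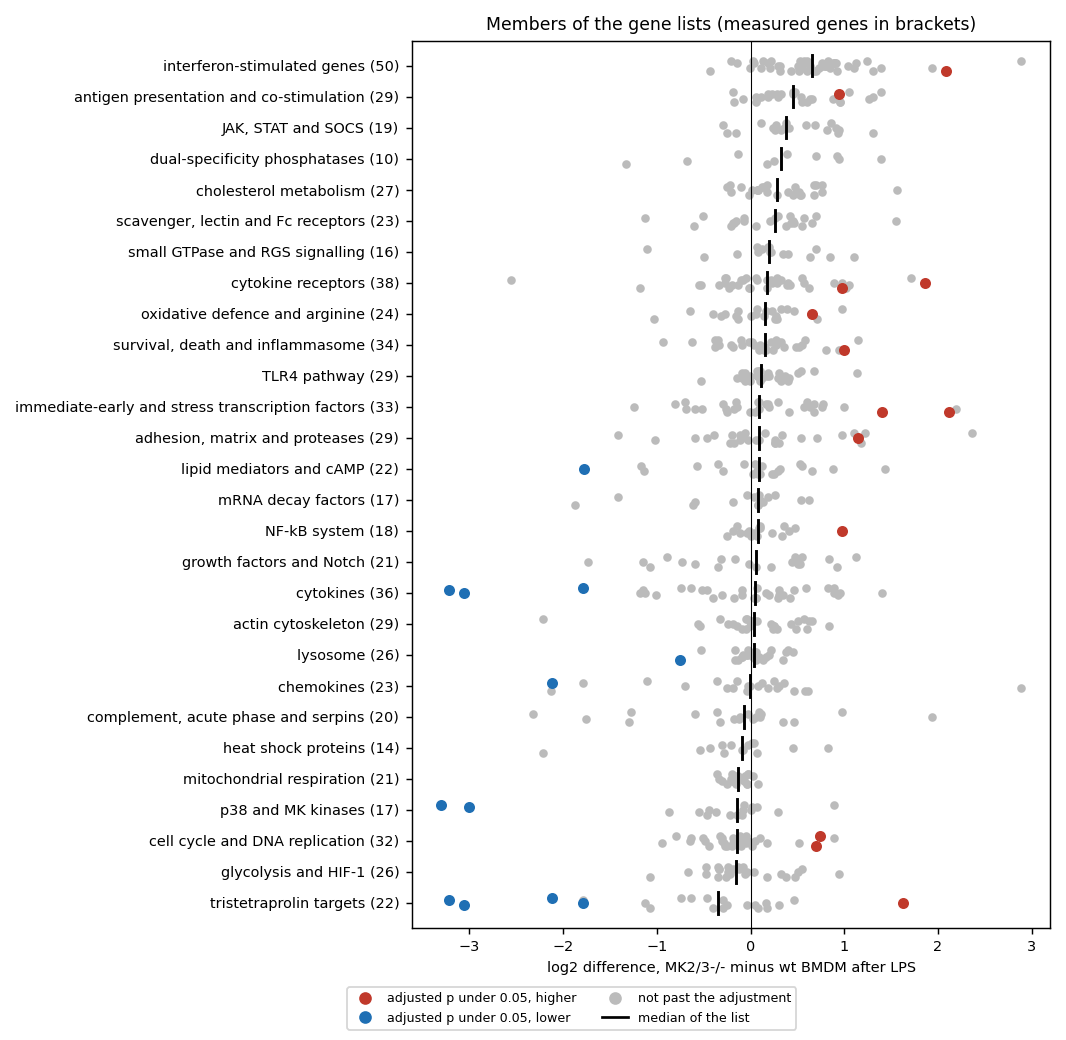
Log2 difference after LPS, MK2/3-/- minus wt BMDM, (horizontal axis) for each measured member of 28 gene lists, ordered by their median (black bar). Interferon-stimulated genes have the highest median (0.657) and tristetraprolin targets the lowest (-0.346), and members past the adjustment are scattered over 15 lists.

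Transcription factors of the immediate-early response differed in single members. Of 33, *Jun* and *Atf3* were higher and none was lower (6.06% called compared with 1.64% of all genes), and the median was 0.0943. *Jun*, a subunit of AP-1, read 12.21, 12.04, 12.07 and 11.62 in wt and 14.73, 14.55, 13.65 and 13.51 in MK2/3-/- BMDM (difference 2.12, SE 0.43, adjusted p = 0.0167). The wt arrays lay close together and the knockout arrays formed a higher and a lower pair, all above wt. *Atf3*, a stress-induced repressor of inflammatory genes, read 14.11, 15.13, 14.90 and 14.40 in wt and 16.27, 16.16, 15.55 and 16.16 in the knockout (difference 1.40, SE 0.26, adjusted p = 0.00886). Its groups were separate by a small margin. *Jun* lost its call without wt array 4 or MK2/3-/- array 1 or 2 (adjusted p up to 0.0644), whereas *Atf3* kept it without any 1 of the 8 arrays. Of the partners of *Jun*, *Fos* differed by 0.04 and *Junb* by -0.27, and neither passed.

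The NF-kB system showed 1 call in 18 genes (5.56% compared with 1.64% of all genes), with a median of 0.0802. *Tnip3* was higher by 0.98 (SE 0.24, adjusted p = 0.0434) at 11.44, 11.80, 12.40 and 12.10 in wt and 13.11, 13.08, 12.83 and 12.63 in MK2/3-/- BMDM. The groups were separate, but the call was lost with the mean or the brightest of its probes. It was also lost without any of wt arrays 1, 2 and 4 and MK2/3-/- arrays 1 to 3 (adjusted p up to 0.171). Over all alternatives the smallest difference of *Tnip3* was 0.44. The subunits themselves lay between -0.19 and 0.47. In the TLR4 pathway none of 29 genes passed in limma, with 4 higher and 1 lower at an unadjusted p under 0.05, and *Tlr4* and its co-receptor *Cd14* differed by 0.11 and -0.01. Among 19 genes of JAK, STAT and SOCS none passed in limma, with 4 higher and 0 lower at an unadjusted p under 0.05 and a median of 0.376.

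Further single members of signalling and effector lists passed. *Adora2b*, the adenosine A2B receptor that raises cAMP, read 13.35, 12.81, 12.92 and 13.08 in wt and 11.63, 11.16, 10.73 and 11.55 in MK2/3-/- BMDM, which was lower by a log2 difference of -1.77 (SE 0.31, adjusted p = 0.00655). It was the only call among 22 genes of lipid mediators and cAMP (4.55% compared with 1.64% of all genes). Its groups were more than 1 log2 unit apart, and the call was kept without any 1 of the 8 arrays. *Cd86*, a co-stimulatory ligand for T cells, read 11.19, 12.30, 11.47 and 11.84 in wt and 12.77, 13.01, 12.41 and 12.40 in the knockout (difference 0.95, adjusted p = 0.0459), with groups that nearly touched. Antigen presentation and co-stimulation had a median of 0.458 over 29 genes, and 26 of them were above 0. *Ripk1*, a kinase of death receptor signalling, was higher by 1.00 (adjusted p = 0.0397) and *Ncf1*, the p47 subunit of the phagocyte oxidase, by 0.66 (adjusted p = 0.0221).

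Single members of the cell cycle, adhesion and lysosome lists passed as well. *Ccnd3* (cyclin D3) was higher by 0.74 and *Cdkn1b* (the inhibitor p27) by 0.70 (adjusted p = 0.00948 and 0.0406). They were 2 of 32 cell cycle genes (6.25% compared with 1.64% of all genes). *Cd44*, a receptor of hyaluronan, was higher by 1.15 (adjusted p = 0.0311), and *Ctsl*, the lysosomal protease cathepsin L, lower by -0.75 (adjusted p = 0.0496). Except for *Ccnd3*, these calls and those of *Cd86*, *Ripk1* and *Ncf1* were each lost without wt LPS array 1 and without at least 3 of the other arrays, with adjusted p-values up to 0.192. Those of *Cd44* and *Ctsl* were also lost with signals scaled to the 75th percentile. In limma, no member passed on 13 of the 28 lists, with 2 to 6 members of each at an unadjusted p under 0.05. Besides those given above these included actin cytoskeleton (29 genes), cholesterol metabolism (27), glycolysis and HIF-1 (26), scavenger, lectin and Fc receptors (23), growth factors and Notch (21), mitochondrial respiration (21), complement, acute phase and serpins (20) and heat shock proteins (14). In limma, mitochondrial respiration had 4 genes lower and 0 higher at an unadjusted p under 0.05, with 19 of 21 below 0 and a median of -0.131.

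Beyond the lists, the 15 largest increases with a gene symbol ran from 1.99 to 5.13. The top pair were *Ctse*, which encodes the aspartic protease cathepsin E, and *Chil1*, a chitinase-like protein. *Ctse* read 4.95, 6.01, 10.81 and 5.73 in wt and 12.30, 11.93, 11.75 and 12.03 in MK2/3-/- BMDM (difference 5.13, SE 1.09, adjusted p = 0.0221). *Chil1* read 2.28, 3.37, 7.34 and 3.07 in wt and 9.39, 9.69, 8.65 and 6.73 in the knockout (difference 4.60, SE 0.99, adjusted p = 0.0237). Array 3 was far above the other wt arrays for both, and overlapped the knockout range for *Chil1*. Without wt array 3 the differences were 6.44 and 5.71, whereas both calls were lost without wt array 1 or 4 or MK2/3-/- array 1 or 2, and that of *Chil1* also without knockout array 3, with adjusted p-values up to 0.0995.

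Transcription factors of blood cell development followed. *Tal1*, a helix-loop-helix factor of haematopoietic and erythroid cells, read 8.75, 10.06, 9.30 and 8.76 in wt and 12.57, 12.62, 11.87 and 11.07 in MK2/3-/- BMDM (difference 2.82, SE 0.40, adjusted p = 0.00119). *Hhex*, a homeobox factor of haematopoietic progenitors, read 7.04, 8.26, 8.06 and 7.24 in wt and 10.09, 10.81, 9.59 and 9.19 in the knockout (difference 2.27, SE 0.29, adjusted p = 0.000721). *Hopx*, a homeodomain protein that does not bind DNA, was higher by 2.07 (SE 0.39, adjusted p = 0.0109). For these 3 genes the groups were separate and the call was kept without any 1 of the 8 arrays. Of 7 erythroid and platelet markers, *Alas2*, *Klf1* and *Gp9* were above background on none of the 8 arrays, and the summed level ran from 15.61 to 16.84 in wt and from 16.48 to 17.07 in MK2/3-/- BMDM. The part of such cells in the level of *Tal1* was not tested.

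Ligands, receptors and a hormone made up much of the remainder. *Tnfsf18*, the ligand of the T cell receptor GITR, read 4.11, 4.50, 4.43 and 3.61 in wt and 6.78, 7.56, 6.69 and 4.84 in MK2/3-/- BMDM (difference 2.31, SE 0.41, adjusted p = 0.00655). *Hamp*, which encodes the iron hormone hepcidin, read 6.48, 6.69, 5.03 and 6.30 in wt and 8.26, 8.23, 8.93 and 7.05 in the knockout (difference 1.99, SE 0.42, adjusted p = 0.0218). *Lag3*, an inhibitory receptor of lymphocytes, read 4.46, 6.26, 5.32 and 4.21 in wt and 7.23, 8.40, 7.38 and 5.70 in the knockout (difference 2.12, SE 0.50, adjusted p = 0.0391). Array 4 was the lowest of the knockout arrays for all 3 genes, and overlapped the wt range for *Lag3*. The calls of *Hamp* and *Lag3* were lost without wt array 1 or 4 or MK2/3-/- array 1, 2 or 3 (adjusted p up to 0.149), and that of *Tnfsf18* was kept. The others of the 15 were *Adgrg5* (an adhesion G protein-coupled receptor, 2.86), *Phxr4* (2.48), *Olfr30* (an olfactory receptor, 2.46), 6330407A03Rik (2.17) and D830031N03Rik (2.07), besides *Jun* and *Irf8*. *Adgrg5* and *Chil1* were well above background on 1 of the 4 wt arrays and on all knockout arrays, so that their differences rest on wt signals at the limit of detection. The call of *Adgrg5* was lost without wt array 4 (adjusted p = 0.0507), and those of the last 4 without wt array 1 and at least 1 other array, with adjusted p-values up to 0.132. That of *Olfr30* was also lost with normexp background correction, and those of *Phxr4* and *Lag3* with signals scaled to the 75th percentile. Over all alternatives the smallest differences were 0.61 for *Adgrg5*, 1.31 for *Phxr4*, 0.89 for *Olfr30*, 1.84 for 6330407A03Rik and 0.70 for D830031N03Rik.

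The 15 largest reductions with a symbol ran from -1.89 to -3.47 and included genes of RNA metabolism. *Mrm2*, a methyltransferase of mitochondrial ribosomal RNA, read 6.47, 7.84, 5.32 and 6.25 in wt and 4.23, 3.97, 4.91 and 4.37 in the knockout (difference -2.10, SE 0.36, adjusted p = 0.00569). Its groups were separate between genotypes, and the call was kept without any 1 of the 8 arrays. *Plcxd1*, a protein with a phospholipase C domain, read 11.85, 11.77, 11.73 and 11.98 in wt and 9.45, 9.34, 9.77 and 8.90 in MK2/3-/- BMDM (difference -2.47, SE 0.16, adjusted p = 2.86e-08), with separate groups. Besides *Mapkapk2*, *Mapkapk3*, *Il10*, *Il2* and *Cxcl2*, they included *Abhd14b* (-3.47), *Abhd14a* (-2.75), *Zfp27* (-2.32), *Pcbp4* (-2.25), *Bcl2l15* (-2.16), *Tmcc2* (-2.08) and *Rnf113a1* (-1.89). *Zfp27*, *Tmcc2* and *Rnf113a1* were well above background on 1 of the 4 knockout arrays, *Bcl2l15* and *Mrm2* on 2. The call of *Zfp27* was lost without wt array 1 (adjusted p = 0.0501) and with its brightest probe (-0.93), and its difference was -0.73 with normexp background correction. The calls of *Pcbp4*, *Bcl2l15*, *Tmcc2* and *Rnf113a1* were lost without any 1 of 6 arrays, wt arrays 1 and 4 among them, with adjusted p-values up to 0.181. Those of *Tmcc2* and *Rnf113a1* were also lost with normexp. Over all alternatives the smallest differences were -0.48 for *Tmcc2*, -0.61 for *Rnf113a1*, -0.87 for *Bcl2l15* and -0.94 for *Mrm2*. A pair of entries known here only by an accession, chosen after their values were seen, had the largest reductions of all called entries. These were NM_133362 with -6.0 (adjusted p = 0.0221) and TC1700876 with -5.45 (adjusted p = 0.0262).

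Genes of the mitochondrial ribosome and of RNA processing were then examined by family, and these families were chosen after the values were seen, so that no test is given. Of 78 mitochondrial ribosomal proteins (Mrpl and Mrps), 9 were lower and 0 higher (11.5% compared with 0.871% of all genes), 73 were below 0 and the median was -0.279. *Mrps14* read 8.30, 7.64, 7.44 and 7.94 in wt and 6.42, 6.17, 7.02 and 6.46 in MK2/3-/- BMDM (difference -1.31, adjusted p = 0.00306). *Mrps31* read 11.45, 10.69, 11.09 and 11.52 in wt and 9.60, 9.81, 10.29 and 10.26 in the knockout (difference -1.20, adjusted p = 0.00267). The arrays were separate in both, although *Mrps14* differed by -0.53 and lost its call with the brightest of its probes (adjusted p = 0.0969). The other 7 (*Mrpl1*, *Mrpl19*, *Mrpl36*, *Mrpl47*, *Mrpl53*, *Mrps5* and *Mrps22*) lay between -0.61 and -0.84. The family had 3 lower calls without wt LPS array 1 or 4, 4 without MK2/3-/- LPS array 1 or 2 and 6 without knockout array 3. In medium the family had a median of 0.00379 and 37 of 78 members were below 0. Cytosolic ribosomal proteins (84 genes) had 0 calls, 3 lower at an unadjusted p under 0.05 and a median of -0.0366, and 40 proteasome genes had 0 calls, 8 lower at an unadjusted p under 0.05 and a median of -0.175. With signals scaled to the 75th percentile, which moved the median of all genes to 0.15, the mitochondrial family had 5 lower calls, 63 members below 0 and a median of -0.22.

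Genes of nonsense-mediated decay, the pathway that removes mRNAs with premature stop codons, were called in both directions. *Smg1*, the kinase that phosphorylates UPF1, read 9.86, 10.55, 10.27 and 9.69 in wt and 11.03, 10.98, 11.28 and 10.92 in MK2/3-/- BMDM (difference 0.96, adjusted p = 0.00780). The helicase *Upf1* was higher by 0.61 (adjusted p = 0.0212), while *Smg8*, a subunit of the SMG1 complex, was lower by -0.93 (adjusted p = 0.0311). The call of *Smg1* was kept without any 1 of the 8 arrays, and those of *Upf1* and *Smg8* were lost without wt array 1 or 4 or knockout array 3, and that of *Smg8* also without knockout array 2 or 4 (adjusted p up to 0.104). Numbered zinc finger proteins (369 Zfp genes) had 14 lower (3.79% compared with 0.871% of all genes) and 2 higher calls and a median of -0.185, with *Zfp566* at -1.48 and *Zfp932* at -1.30 among the lower and *Zfp608* at 1.38 and *Zfp217* at 0.91 as the higher ones. LPS reduced all 14 lower genes in MK2-/- BMDM at an adjusted p under 0.05 in limma, and the family had a median LPS response of -0.699 there. Of all genes that LPS reduced in MK2-/- BMDM, 4.23% were called lower. Of 7 subunits of RNase P and MRP, *Rpp38* (-1.13) and *Rpp25l* (-0.80) were lower (28.6%), and all 7 were below 0.

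Whether the genes that differed respond to LPS was read from MK2-/- BMDM, whose arrays are in neither group compared but share the estimate of the spread. These cells lack MK2, as MK2/3-/- BMDM do. An effect of MK2 loss on the LPS response would therefore enter both the classes and the calls, and the shares below are not independent of the comparison. LPS raised 8.41% and lowered 9.98% of all genes there at an adjusted p under 0.05 in limma, and the rest, classed as neither, did not pass. Of the 205 genes that were higher in MK2/3-/- BMDM after LPS, 77 (37.6%) were LPS-induced, 24 (11.7%) LPS-reduced and 104 (50.7%) neither. Of the 231 lower genes, 14 (6.06%) were induced, 112 (48.5%) reduced and 105 (45.5%) neither. Taken from the side of the response, 3.45% of LPS-induced genes were called higher and 0.628% lower, whereas 0.907% of LPS-reduced genes were called higher and 4.23% lower. Genes without a called response were divided equally, with 0.481% higher and 0.485% lower. The order was similar among the 13552 genes above background on all 8 arrays, with 3.70% and 0.617% of induced and 1.16% and 4.82% of reduced genes called higher and lower. *Il10*, *Il2*, *Cxcl2*, *Il23a* and *Adora2b* were among the 14 lower genes that LPS induced in MK2-/- BMDM. *Ccrl2*, *Il10ra*, *Tnfsf18* and *Hamp* were among the higher genes that it induced, *Jun* and *Hhex* among those it reduced, and *Irf8*, *Atf3* and *Tal1* among those without a called response in MK2-/- BMDM. The class does not describe the other genotypes: LPS minus medium was 2.12 for *Tal1* and 2.11 for *Irf8* in MK2/3-/- BMDM, and -0.26 and 0.16 in wt.

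**Figure D3:**
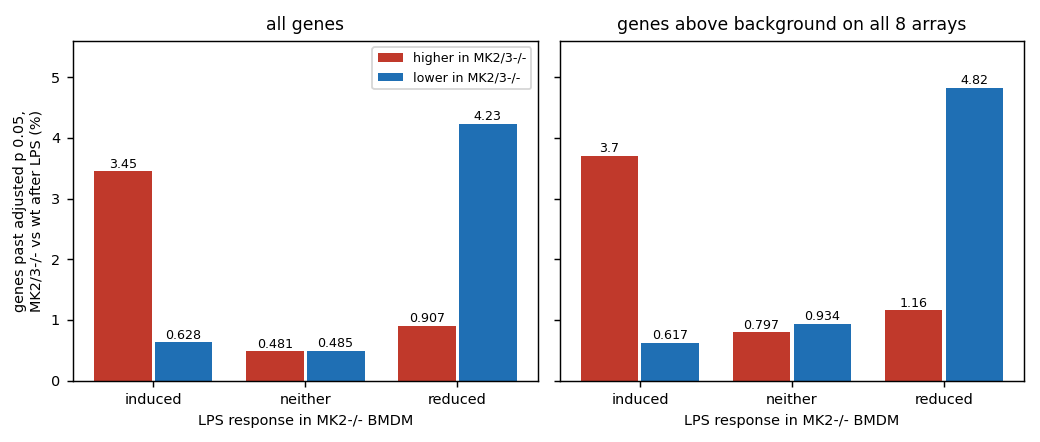
Share of genes (vertical axis, percent) called higher (red) or lower (blue) in MK2/3-/- than in wt BMDM after LPS, for genes that LPS induced, reduced or did neither to in MK2-/- BMDM, over all genes (left) and over genes above background on all 8 arrays (right). Among all genes, induced genes were called higher in 3.45% and reduced genes lower in 4.23%, and the other shares lay below 1%.

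The same genotypes in medium show which differences were present without LPS, on arrays of the same cultures and slides. In medium, 21 genes passed the adjustment (0.0792%), 7 higher (0.0264%) and 14 lower (0.0528%; 8 and 10 with signals scaled to the 75th percentile). Of the genes called after LPS, 6 higher and 11 lower ones were also called in medium, in the same direction each. The sign in medium was the same for 176 of the 205 higher genes (85.9%) and for 162 of the 231 lower genes (70.1%), compared with 63.4% of all genes, but their median difference in medium was only 0.248 and -0.0959. Several of the genes with large differences after LPS did not pass in medium, where *Il10* differed by 0.32, *Il2* by -0.10, *Cxcl2* by 0.56, *Il23a* by 0.02, *Irf8* by 0.14, *Jun* by 0.13 and *Hhex* by 0.11.

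Among the genes called in both conditions were *Mapkapk2*, *Mapkapk3*, *Plcxd1* (-2.61 in medium), *Abhd14b* (-3.58), *Abhd14a* (-2.66), *Ccrl2* (1.52) and *Adgrg5* (3.63). The test of the LPS response itself, which takes the medium arrays away from both genotypes, called 3 genes (0.0113%), each with a lower value of LPS minus medium in MK2/3-/- than in wt BMDM, and 1205 genes (4.55%) had an unadjusted p under 0.05. Besides *Mapkapk3* these were *Grpel2*, a co-chaperone of the mitochondrial import motor (-1.24, adjusted p = 0.00452), and the entry AK133004 (-2.20). *Grpel2* read 9.10, 9.01, 8.97 and 8.90 in wt and 7.87, 8.04, 7.85 and 7.92 in MK2/3-/- BMDM after LPS, with separate groups that varied little, and differed by 0.17 in medium. *Il10* and *Hhex* had interaction values of -3.54 and 2.15 without passing the adjustment over all genes.

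**Figure D4:**
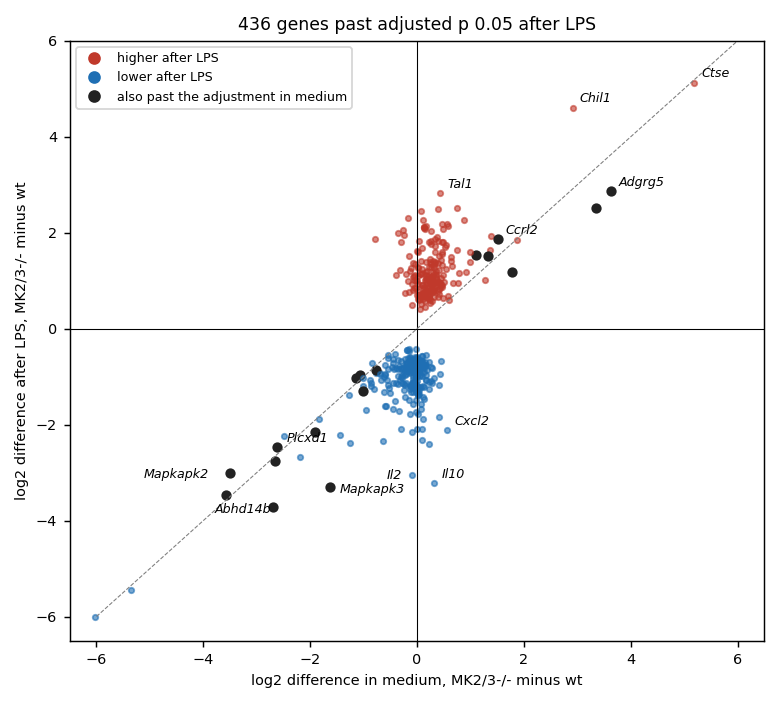
Log2 difference after LPS, MK2/3-/- minus wt BMDM, (vertical axis) against that in medium (horizontal axis) for the 436 genes called after LPS, with the line of equality (dashed). Most genes, among them *Il10*, *Il2* and *Cxcl2*, lie near 0 in medium, whereas *Mapkapk2*, *Abhd14b*, *Plcxd1* and *Adgrg5* lie near the line.

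Several of the genes with equal differences in both conditions are chromosomal neighbours of the targeted genes. A constitutive knockout retains a stretch of chromosome from the embryonic stem cells in which the gene was targeted, whose strain is not given in the labels. Of 31 measured genes within 25 places of *Mapkapk2* in the RefSeq gene order, *Ctse* (15 places after) was higher and *Il10* (1 place before) and *Yod1* (13 before) were lower, which is 9.68% compared with 1.64% of all genes. *Yod1*, a deubiquitinase, read 6.93, 7.01, 7.08 and 7.42 in wt and 5.42, 5.97, 5.87 and 6.64 in MK2/3-/- BMDM (difference -1.14, adjusted p = 0.00918). None of these 3 was called in medium, where *Ctse* differed by 5.18 (adjusted p = 0.129). Within 25 places of *Mapkapk3*, 0 of 33 genes passed in limma, with 5 higher and 5 lower at an unadjusted p under 0.05.

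The window was widened after the values had been seen. Between 26 and 28 places before *Mapkapk3* lay *Pcbp4*, *Abhd14b* and *Abhd14a*, with differences of -2.25, -3.47 and -2.75. *Abhd14b*, a hydrolase of the alpha/beta type, read 10.12, 9.90, 10.58 and 10.39 in wt and 7.93, 6.40, 6.18 and 6.58 in the knockout (SE 0.31, adjusted p = 4.65e-06), with groups about 2 log2 units apart. In MK2-/- BMDM after LPS, where *Mapkapk3* is intact, these 3 genes differed from the same wt arrays by -0.51, 0.30 and -0.50 (adjusted p of 0.844 or more). *Ccrl2* lay 171 places after *Mapkapk3* and differed in MK2-/- BMDM by 0.33.

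Near *Mapkapk2*, in turn, *Ctse*, *Chil1* (98 places after) and *Ipo9* (an importin, 141 after) differed in MK2-/- BMDM by 5.41, 4.92 and 1.31 (adjusted p = 0.127, 0.127 and 0.00505) and in MK2/3-/- BMDM by 5.13, 4.60 and 1.53. *Il10* differed by -1.53 in MK2-/- (adjusted p = 0.456) and by -3.22 in MK2/3-/- BMDM. Within 200 places, 11 of 158 genes (6.96%) around *Mapkapk2* and 10 of 227 (4.41%) around *Mapkapk3* were called, compared with 1.64% of all genes. The part of linked sequence in these levels, including that of *Il10* and *Ccrl2*, was not tested.

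**Figure D5:**
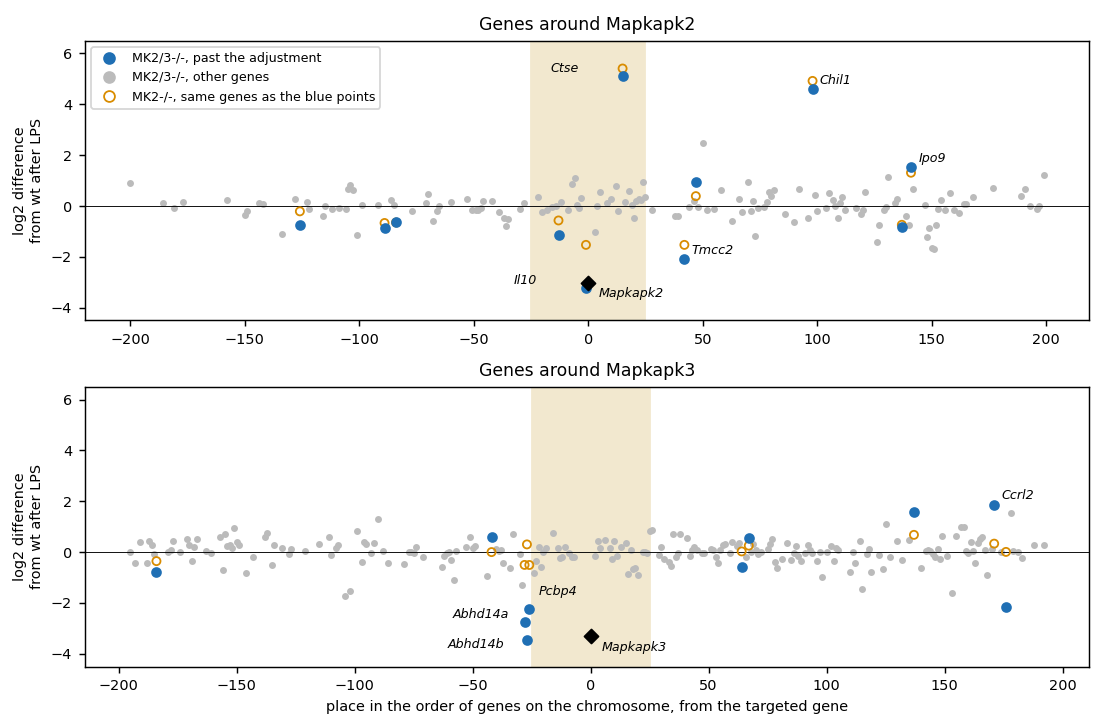
Log2 difference from wt BMDM after LPS (vertical axis) of genes around *Mapkapk2* and *Mapkapk3*, against their place in the gene order (horizontal axis, in genes from the targeted gene, shaded within 25 places). Blue points are genes called in MK2/3-/- BMDM, grey points other genes, open circles the same genes in MK2-/- BMDM, and diamonds the targeted genes. *Abhd14a*, *Abhd14b* and *Pcbp4* are low in MK2/3-/- BMDM and near 0 in MK2-/- BMDM, and *Ctse* and *Chil1* are high in both.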

How the data were processed

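Gene expression was measured with single-colour Agilent mouse arrays, designed on the mm9 build and read with Feature Extraction 11.0.1.1 per the file headers. The deposited intensity of each spot had been background-subtracted and detrended by the authors' scanner software, and the deposited log2 values had been quantile normalized by the authors and served as an alternative.

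From the intensities, control probes and spots with outlier flags were left out (258 of 1280663 probe values were missing), log2 signals were averaged over spots of a probe and quantile normalized across the 23 arrays. Genes with several probes were represented by that with the strongest LPS induction in wt BMDM, as in the study's methods. This choice uses wt LPS arrays that also enter the comparison. The 26512 genes comprised 20886 with a symbol and 5626 known by an accession. Models with 6 groups on all 23 arrays were fitted in limma 3.58.1 (R 4.3.3) and tested with Benjamini-Hochberg adjustment at 0.05. Single genes were also compared by a two-sided exact permutation test over arrays. The script was tested on simulated data. Named were the members of fixed gene lists that passed, the 15 largest changes in either direction with a symbol, neighbours of the targeted genes, and a few others given as chosen after their values were seen. Gene lists, markers and members were chosen with earlier results of these data known. Promoters were matched by symbol to RefSeq sequences of GRCm38.p6, and figures were drawn with matplotlib 3.10.9. *Il10* was not matched to a promoter. A few genes that these rules name are not reported here.

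Replicates are labelled as separate animals only by number and age. The limma p-values rest on a shared estimate of the spread over all arrays fitted, those in medium and of MK2-/- BMDM included. Medium and LPS arrays of the same culture entered this fit as independent, although they were correlated (block correlation 0.239). The spread between the compared cultures alone is used when only the arrays compared are fitted. The number of arrays, 4 a group, limits the precision. No probe was saturated. Alternatives comprised scaling, background correction, probe choice, filters, the arrays fitted, blocks, the methods' t-test, run on the same quantile normalized values and counted before and after adjustment, and leaving out each array.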

Additional observations from a re-analysis of the deposited data

Results flagged for a closer look

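In 10 of 128 groups of 4 arrays examined for the named genes (7.81%), 1 array stood apart from the other 3 by more than Dixon's critical value for the gap as a share of the range, which chance alone does in about 1 group of 20. In MK2/3-/- BMDM after LPS, array 4 was high for *Mapkapk2* (12.26, next 11.65) and *Zfp36l1* (11.98, next 10.51) and low for *Plk2* (10.35, next 11.08). Array 3 of this group was low for *Atf3* (15.55, next 16.15) and high for *Upf1* (10.97, next 10.51), and array 1 was low for D830031N03Rik (5.126, next 6.567). In wt BMDM after LPS, array 1 was high for *Adgrg5* (5.599, next 2.393) and low for *Osm* (6.798, next 8.059), array 2 was high for *Phxr4* (6.192, next 4.594) and array 4 low for *Rps6ka5* (9.164, next 9.683).

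The difference between the genotypes was itself different after LPS and in medium for 3 entries in the interaction test of limma, AK133004 (-2.20), *Mapkapk3* (-1.68) and *Grpel2* (-1.24), each with the lower value after LPS.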

How the results depend on the processing

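After LPS, 436 genes passed, 21 passed in medium and 3 in the test of the LPS response. With only the arrays compared these became 6, 13 and 1, and with the methods' t-test on the same values 5 after LPS (2475 before adjustment) and 2 in medium. With the replicate number as a block they were 945, 33 and 6, 435 of the 436 genes were among the 945, and 3 interferon-stimulated and 15 mitochondrial ribosomal genes were called (1 and 9 without the block). No source says that equal numbers mark one experiment. Over all genes, same-numbered arrays correlated with r of -0.0722, 0.480, 0.253 and 0.254, and over detected genes with 0.00529, 0.816, 0.339 and 0.643. In both, wt array 1 correlated best with knockout array 4 (0.211 and 0.216). The LPS response gave 8 genes with normexp background correction and 12 with culture as a random block (block correlation 0.239). Leaving out 1 array gave 127 to 619 genes after LPS, 17 to 24 in medium and 3 to 15 for the response, and leaving out MK2/3-/- medium array 2, chosen after seeing the data, gave 16 in medium and 3 for the response. Other settings gave 421 to 612 genes after LPS, with 594 under normexp and 612 of 16015 after a filter on dim probes. Of 64 named genes, 56 were called, and of these 52 lost their call with only the arrays compared and 54 with the t-test. Among the 64, the sign turned for *Elavl1* alone, to 0.086 with the brightest probe. Of the 56 called, 24 kept their call without each of the 8 arrays in turn. Dim signals limit the lowest values, since 9 of the 205 higher genes were above background on none of the 8 arrays.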
